A study of Mus musculus with 9 samples.

Results

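The IL-1 family ligands, receptors and antagonists were described in mouse bone marrow (BM)-derived Mϕs from 9 of the 53379 genes in the deposited table. The 9 genes were taken by name: the ligands Il1a, Il1b and Il18, the ligand receptor Il1r1, its partner Il1rap, the IL-33 receptor Il1rl1, and the inhibitors Il1rn, Il1r2 and Il18bp. BM cells of C57BL/6 mice were cultured with 10 ng/ml of the Mϕ growth factor CSF-1 (MCSF) for 3 days, and then for 4 days with CSF-1 alone (control), with CSF-1 and 10 ng/ml IL-4, or with CSF-1 and 100 ng/ml IL-6. Doses and times are those of the sample labels and, for the 3 days of CSF-1, of the study's methods. The methods give another dose of IL-4, and the figure legends give other doses of IL-4 and IL-6 and a shorter treatment. There were 3 libraries in each condition, numbered #1 to #3, and the study counts 3 mice, whose age and sex are not given in the sources used here. No library is free of CSF-1, and all are bulk cultures, so fewer cells of a type and less RNA per cell cannot be told apart.

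IL-1α, IL-1β and IL-18 are cytokines of innate immune cells that bind receptors of a shared family and signal through MyD88 and IRAK proteins to NF-κB. IL-1β and IL-18 are made as precursors, which caspase-1 cleaves within inflammasomes before release, so mRNA does not give the amount of active cytokine. Each arm has its own brakes: the IL-1 receptor antagonist (Il1rn) occupies the receptor without signalling, IL-1R2 binds IL-1 but has no signalling domain, and IL-18 binding protein (Il18bp) captures IL-18 outside the cell.

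Levels are in FPKM, fragments per kilobase of exon, scaled to each library's fragments, which are per length and so can be set side by side between genes. Log2 fold changes are differences of mean log2(FPKM + 0.1), tested with limma over 12824 genes with a mean of at least 0.5 FPKM. A gene passed the test where its adjusted p was under 0.05 and its log2 fold change was 1 or more in size, and 8 of the 9 genes met the filter. Il1r1 lay below it and was tested in the same fit without the filter, over 31047 genes.

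The libraries held 29988160 to 39909571 fragments. All 10 Mϕ markers, Csf1r, Adgre1 and Cd68 among them, were above 0 in all 9 libraries. Socs3, a target of IL-6 signalling, rose with IL-6 (log2 fold change 5.12) and Arg1, a target of IL-4 signalling, rose with IL-4 (10.58). Transcripts of 14 intestinal genes counted 874 to 1140 fragments in Control #1 to #3 and IL-4 #1, against 3 to 8 in the other 5 libraries, so that IL-6 and control lie in different sets of libraries. IL-4 #3 stood apart within its group: its root mean square log2 distance was 1.23 from IL-4 #1 and 1.09 from IL-4 #2, against 0.453 to 0.682 for the other pairs within a condition. Results are given from a fit with a term for this library set, and from one without IL-4 #3, where that changed what passed or a value. With the library-set term, IL-4 against control is IL-4 #1 alone against the 3 control libraries, IL-6 against IL-4 leaves out IL-4 #1, and IL-6 against control is the sum of these differences. A p for IL-4 or IL-6 against control from that fit thus rests on 1 IL-4 library, which is assumed to vary like the others, and is no replicated check.

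Promoters of 4 genes on which the results turn are shown here, as the 250 bases before the RefSeq start (GRCm38.p6), 5′ to 3′ on the gene's strand. Il1b and Il18 are the ligands that passed the test, and Il1r2 and Il1rl1 are receptors that passed with IL-6 and with IL-4. Capitals mark a match to a searched motif.
Il1b, chr2:129371140-129371389, minus strand: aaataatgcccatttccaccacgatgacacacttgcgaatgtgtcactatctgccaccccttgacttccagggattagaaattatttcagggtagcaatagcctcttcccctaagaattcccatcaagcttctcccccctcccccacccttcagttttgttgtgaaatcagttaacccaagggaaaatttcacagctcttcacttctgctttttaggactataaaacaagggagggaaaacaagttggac
Il18, chr9:50554450-50554699, plus strand: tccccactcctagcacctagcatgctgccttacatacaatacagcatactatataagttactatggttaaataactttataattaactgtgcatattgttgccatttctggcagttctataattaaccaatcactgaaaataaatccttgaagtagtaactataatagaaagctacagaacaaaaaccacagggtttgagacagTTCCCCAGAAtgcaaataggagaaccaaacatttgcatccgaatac
Il1r2, chr1:40085843-40086092, plus strand: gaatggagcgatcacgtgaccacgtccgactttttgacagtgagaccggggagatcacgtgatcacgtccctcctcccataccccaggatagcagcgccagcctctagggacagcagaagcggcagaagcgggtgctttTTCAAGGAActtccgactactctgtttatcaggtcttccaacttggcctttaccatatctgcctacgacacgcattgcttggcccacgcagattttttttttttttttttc
Il1rl1, chr1:40429320-40429569, plus strand: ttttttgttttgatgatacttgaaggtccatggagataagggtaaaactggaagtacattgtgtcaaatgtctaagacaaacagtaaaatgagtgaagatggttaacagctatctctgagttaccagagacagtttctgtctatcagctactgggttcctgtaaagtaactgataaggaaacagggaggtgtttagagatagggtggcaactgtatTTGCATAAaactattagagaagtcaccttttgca
The Il1r2 window lies inside the span that the gene annotation gives this gene, so it precedes one of its starts and not the outermost. The Il1b window held none of the searched motifs. The Il18 window held TTCCCCAGAA, 46 to 37 bases before the start, a match to the STAT6-type motif, TTC and GAA with 4 bases between. The Il1r2 window held TTCAAGGAA, 111 to 103 bases before the start, a match to TTCNNNGAA, the spacing of STAT3 sites. The window of the first Il1rl1 start, shown above, held TTGCATAA, 34 to 27 bases before it, a match to TTGCNNAA, a C/EBP-type motif. That of the second Il1rl1 start, not shown, held none of the searched motifs. Both strands were searched, and the motifs do not overlap in these windows. Of 32851 promoter windows of this length, 5.854% held the STAT6-type motif, 7.02% held TTCNNNGAA, 9.564% held TTGCNNAA and 3.899% held the NF-kB consensus. These are matches of letters, not sites of binding. Among the other 5 genes, a STAT6-type match lay before the Il1rn starts 2 and 3, a C/EBP-type match before Il18bp and the first start of Il1r1, and an NF-kB match before its second start, while the windows of Il1a and Il1rap held none.

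With IL-4, 4 of the 9 genes passed the test against control: Il1r1 and Il1rl1 rose, and Il1b and Il18 fell. Over all 12824 genes, 13.9% passed in this comparison, 5.02% higher and 8.89% lower. With IL-6, 2 of the 9 passed against control, Il1b and Il1r2, both higher, where 5.38% of all genes passed and 3.49% passed higher. Between IL-6 and IL-4, 5 of the 9 passed, where 20.4% of all genes passed, 13.6% higher and 6.82% lower: Il1b, Il18 and Il1r2 were higher with IL-6, and Il1r1 and Il1rl1 were lower. The libraries of the groups did not overlap for 6 of the 9 genes with IL-4, 6 with IL-6 and 7 for IL-6 against IL-4, beside 40.3%, 43.2% and 56.9% of all genes. The 3 comparisons share their libraries and are not independent. The median log2 fold change over the 9 genes was −0.52 with IL-4, 0.37 with IL-6 and 0.75 for the direct contrast of IL-6 with IL-4, beside medians over all genes that met the filter of −0.20, −0.00 and 0.22.

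**Figure D1:**
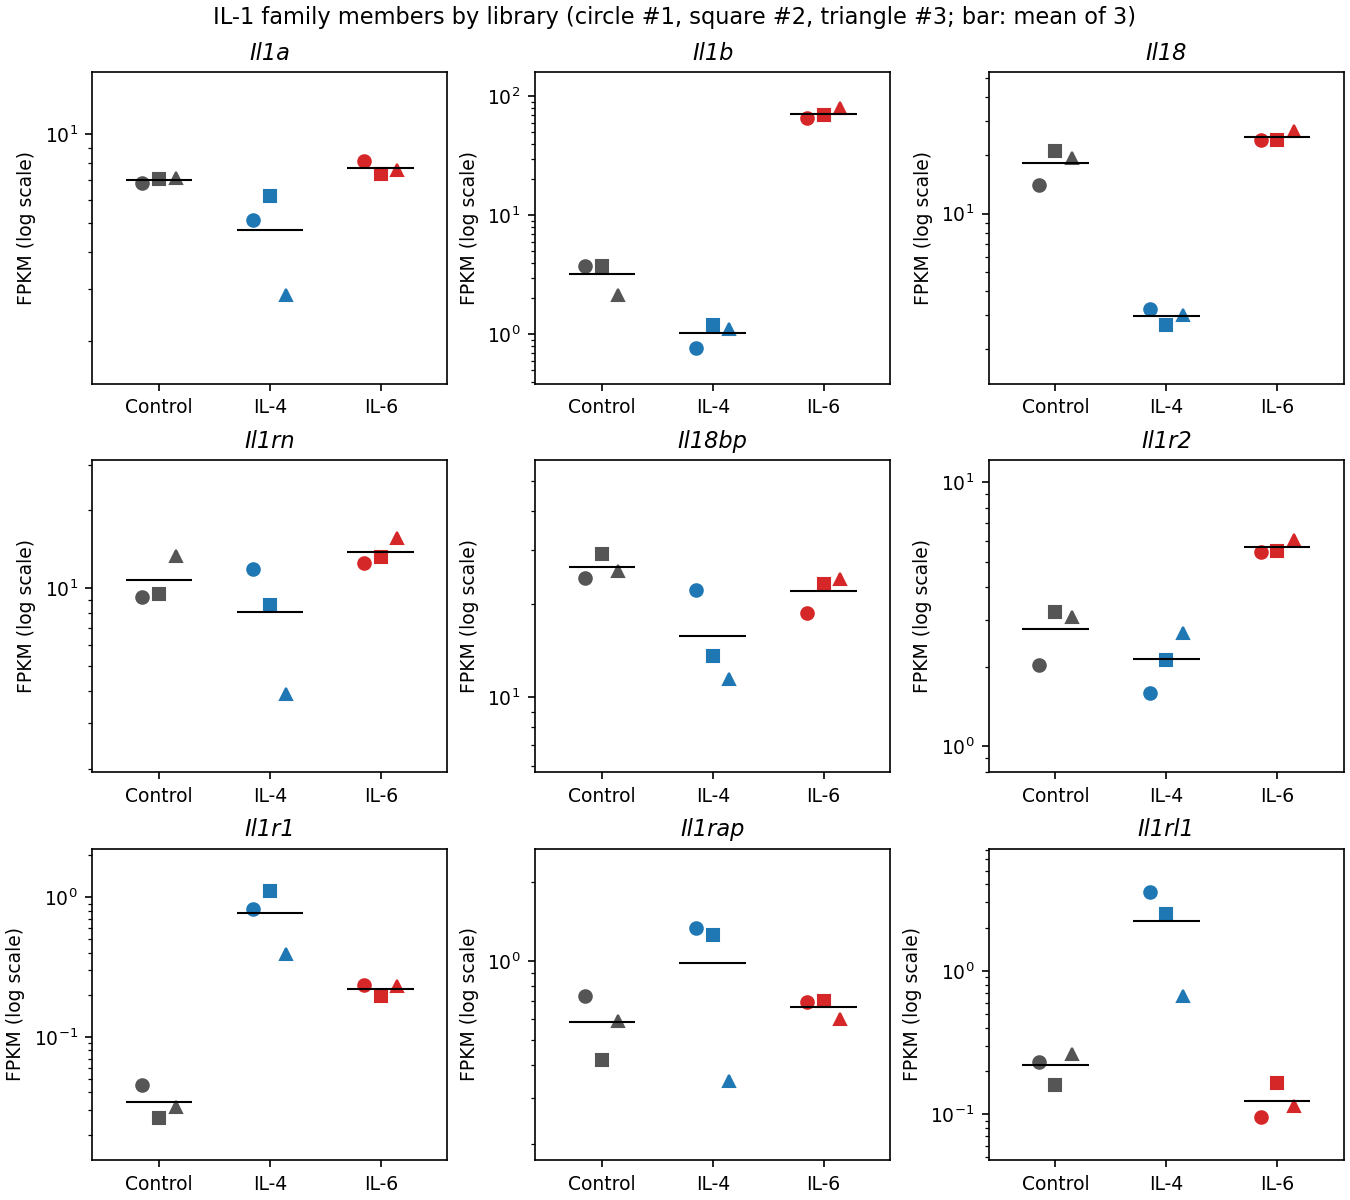
FPKM (log axis, own range in each panel) of the 9 IL-1 family genes in each library; symbols give the replicate number, bars the mean of 3. Il1b stood between 65.6 and 79.6 in the IL-6 libraries and at 3.76 or lower in the others, while Il1r1 and Il1rl1 were highest with IL-4.

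The largest difference among the ligands was in Il1b (ENSMUSG00000027398.13, chromosome 2, 129364570 to 129371139, minus strand, GRCm38), which encodes the secreted IL-1β. Il1b had 3.76, 3.74 and 2.14 FPKM in Control #1 to #3, 0.767, 1.19 and 1.10 in IL-4 #1 to #3, and 65.6, 69.5 and 79.6 in IL-6 #1 to #3. Each condition formed its own range without overlap, with IL-4 lowest and IL-6 far above both. The IL-6 mean was 22.3 times the control mean, a log2 fold change of 4.47 (SE 0.249, adjusted p = 4.98e-05), and the IL-4 mean was 0.318 times control, a log2 fold change of −1.54 (SE 0.249, adjusted p = 0.00303). IL-6 against IL-4 gave 6.01 (adjusted p = 1.88e-06). With the library-set term, through IL-4 #1 alone, the values against control were 3.95 for IL-6 and −1.89 for IL-4 (adjusted p = 0.00917 and 0.0110), and in FPKM IL-4 #1 had 0.239 times the control mean. Within the other set the IL-6 mean was 62.3 times that of IL-4 #2 and #3.

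Il1a (ENSMUSG00000027399.1, chromosome 2, 129299610 to 129309972, minus strand) lies 54597 bases from Il1b on the same strand and encodes IL-1α, whose precursor is already active. Il1a had 6.84, 7.03 and 7.13 FPKM in Control #1 to #3, 5.14, 6.18 and 2.87 in IL-4 #1 to #3, and 8.09, 7.35 and 7.59 in IL-6 #1 to #3. All 3 IL-6 libraries lay just above the control libraries and all 3 IL-4 libraries below them, with IL-4 #3 lowest. The log2 fold change was 0.13 with IL-6 (SE 0.251, adjusted p = 0.813) and −0.62 with IL-4 (SE 0.251, adjusted p = 0.108), and neither passed. Between IL-6 and IL-4 it was 0.75 (adjusted p = 0.0487), under the fold that was set. The 95% interval for IL-6 against control, −0.36 to 0.62, lay below the whole interval of Il1b, 3.99 to 4.96. Il1b FPKM per Il1a FPKM was 0.2996 to 0.549 in control, 0.149 to 0.385 in the IL-4 libraries and 8.11 to 10.5 in the IL-6 libraries. A gene on the opposite strand shares 222 exon bases with Il1a (11.2% of its exon length) and had a mean of 0.297 FPKM.

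Il18 (ENSMUSG00000039217.13, chromosome 9, 50554827 to 50581840, plus strand) encodes IL-18, a ligand that acts with IL-12 on T and NK cells. Il18 had 14.1, 21.1 and 19.4 FPKM in Control #1 to #3, 3.23, 2.66 and 3.01 in IL-4 #1 to #3, and 24.0, 24.1 and 26.8 in IL-6 #1 to #3. The IL-4 libraries lay far below all others and close to each other, and the IL-6 libraries lay above the control libraries. With IL-4 the mean was 0.163 times control, a log2 fold change of −2.56 (SE 0.166, adjusted p = 2.51e-05). IL-6 gave a log2 fold change of 0.47 (SE 0.166, adjusted p = 0.142), which did not pass, and IL-6 against IL-4 gave 3.03 (adjusted p = 6.57e-06). Within its own set IL-4 #1, 1 library, had 0.178 times the control mean, which is the −2.44 of the library-set term (adjusted p = 0.00110). Levels of the 10 Mϕ markers moved with it: their summed level was 6369 to 7437 FPKM with IL-4 against 17086 to 19541 in control, and 5 of the 10 passed lower, Lyz2 and Cd14 among them. The part of these markers in the Il18 result was not tested.

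The STAT6-type match shown above stands in the promoter of Il18, which fell with IL-4, while Il1r1, Il1rl1 and Il1b, which also passed with IL-4, had no such match in their windows. Il1rn, the other gene with this match, did not pass with IL-4.

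**Figure D2:**
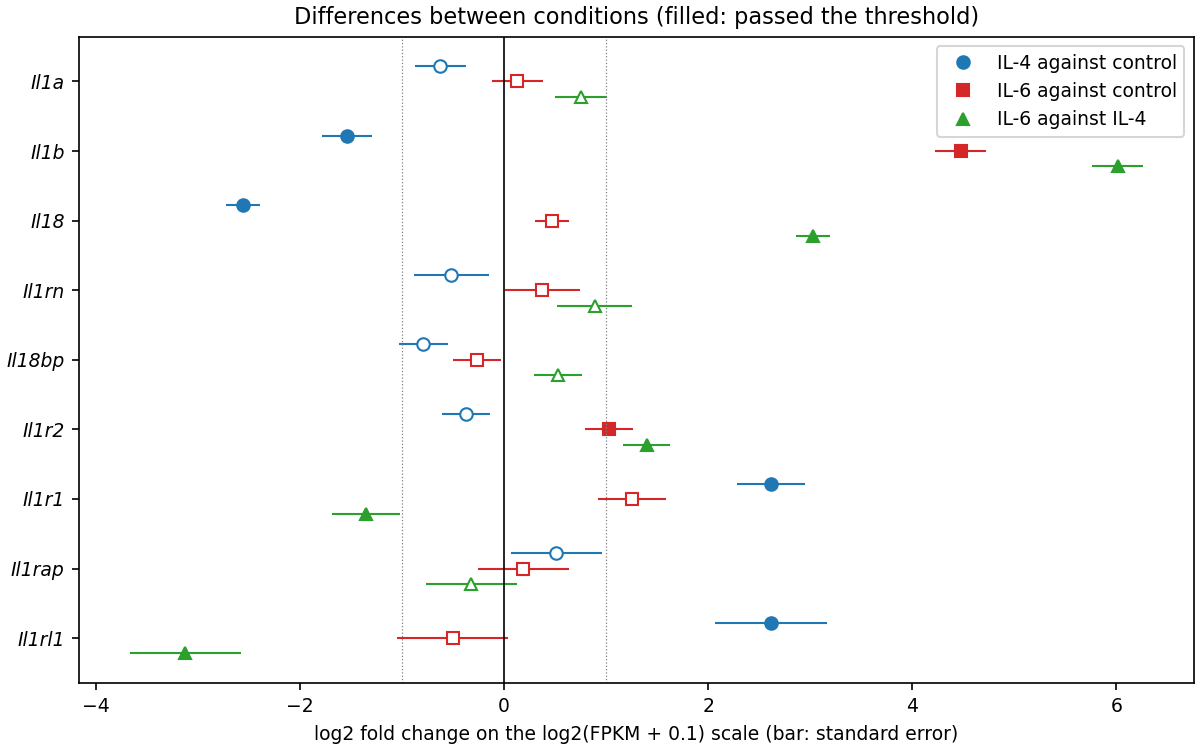
Log2 fold changes of the 9 genes on the log2(FPKM + 0.1) scale for IL-4 against control, IL-6 against control and IL-6 against IL-4; bars are standard errors, filled symbols passed the test, and dotted lines mark a log2 fold change of 1 in size. Il1b and Il18 lie to the left for IL-4 against control, and Il1r1 and Il1rl1 to the right.

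IL-1 receptor type 1 (Il1r1, ENSMUSG00000026072.12, chromosome 1, 40225080 to 40317257, plus strand), the receptor that signals for IL-1α and IL-1β, was the lowest of the 9 genes in control. Il1r1 had 0.0450, 0.0262 and 0.0314 FPKM in Control #1 to #3 (5 to 10 fragments), 0.818, 1.11 and 0.394 in IL-4 #1 to #3 (100 to 215 fragments), and 0.234, 0.197 and 0.230 in IL-6 #1 to #3 (41 to 52 fragments). The 3 conditions did not overlap, with IL-4 highest and IL-6 between. Against control the IL-4 mean was 22.7 times as high, and the log2 fold change of 2.61 (SE 0.333, adjusted p = 0.00197) is smaller than that ratio because 0.1 is added to each value. Without the filter, where Il1r1 was tested, 6.63% of 31047 genes passed in this comparison, where IL-6 gave 2.39% against control and 9.89% against IL-4. IL-4 #1 alone, in the fit with the library-set term, gave 2.78 (adjusted p = 0.0185), and with a pseudocount of 1 in place of 0.1 it was 0.76, under the fold that was set.

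With IL-6, Il1r1 was at 6.45 times the control mean, but the log2 fold change of 1.26 (SE 0.333, adjusted p = 0.101) did not pass. This call turned with the fit: it passed without IL-4 #3 (1.26, adjusted p = 0.0130), with a pseudocount of 0.01 (adjusted p = 0.0313), with limma voom on fragments (2.63, adjusted p = 0.0342), with only the groups compared (1.26, adjusted p = 0.00393) and with trends on length and GC content removed (1.12, adjusted p = 0.0446). The library-set term gave 1.50, which did not pass (adjusted p = 0.357). IL-6 against IL-4 gave −1.36 (SE 0.333, adjusted p = 0.0302). That call was kept without Control #1 or IL-4 #3 and lost without any of the other 7 libraries, with log2 fold changes from −1.72 to −1.07 and a highest adjusted p of 0.0983. It was also lost with the library-set term (−1.27, adjusted p = 0.0697). The same call was lost with a pseudocount of 1, with only the groups compared and with the replicate number as a block.

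Il1rap (ENSMUSG00000022514.14, chromosome 16, 26581704 to 26730117, plus strand) encodes the accessory chain that IL-1R1, the IL-33 receptor and the IL-36 receptor share. Il1rap had 0.736, 0.420 and 0.592 FPKM in Control #1 to #3, 1.34, 1.25 and 0.348 in IL-4 #1 to #3, and 0.696, 0.701 and 0.599 in IL-6 #1 to #3. IL-4 #1 and #2 lay above all other libraries, while IL-4 #3 was the lowest of the 9. The log2 fold change with IL-4 was 0.51 (SE 0.447, adjusted p = 0.442), and without IL-4 #3 it was 1.06 (SE 0.247, adjusted p = 0.0115), which passed. With IL-6 it was 0.19 (adjusted p = 0.848, 95% interval −0.69 to 1.06).

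The IL-33 receptor ST2 (Il1rl1, ENSMUSG00000026069.15, chromosome 1, 40429570 to 40465415, plus strand) is made both as a membrane receptor and as a soluble decoy, which a table per gene does not tell apart. Il1rl1 had 0.233, 0.160 and 0.265 FPKM in Control #1 to #3, 3.56, 2.49 and 0.669 in IL-4 #1 to #3, and 0.0956, 0.164 and 0.113 in IL-6 #1 to #3. All IL-4 libraries lay above the others, IL-4 #3 the least so, and control and IL-6 overlapped. The IL-4 mean was 10.2 times the control mean, a log2 fold change of 2.62 (SE 0.546, adjusted p = 0.00995), and without IL-4 #3 it was 3.28 (SE 0.328, adjusted p = 0.000193). The library-set term gave 3.53 (adjusted p = 0.0148), which is the difference of IL-4 #1 alone, the highest IL-4 library, from control. IL-6 against control gave −0.50 (SE 0.546, adjusted p = 0.664), which turned to 0.87 with that term (adjusted p = 0.479), and IL-6 against IL-4 gave −3.12 (adjusted p = 0.00328).

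ST2 is a known receptor of mast cells and basophils, and the summed level of markers of these cells was, like Il1rl1, highest with IL-4. The summed level of 10 such markers was 7.99 to 15.9 FPKM in control, 32.8 to 50.8 in the IL-4 libraries and 6.17 to 14.6 in the IL-6 libraries. Within the IL-4 group the order differed: the sums were 50.8, 32.8 and 35.9 in IL-4 #1 to #3, while Il1rl1 was lowest in IL-4 #3. With IL-4, 6 of the 10 passed higher and none lower, against 0 in either direction with IL-6 by limma, with 0 at an unadjusted p under 0.05 and 0 by limma voom. Tpsb2 and Mcpt4, proteases of mature mast cells, were at 0 in all 9 libraries, and Tpsab1 was at 0 in 8 of 9. The mast cell chymase Cma1 was at 0 in the 6 control and IL-6 libraries and had 19, 10 and 29 fragments in IL-4 #1 to #3. Hdc, which makes histamine, was at 0.526 times control with IL-4 (log2 fold change −0.88, adjusted p = 0.0608), which did not pass. The part of these cells in the Il1rl1 result was not tested.

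**Figure D3:**
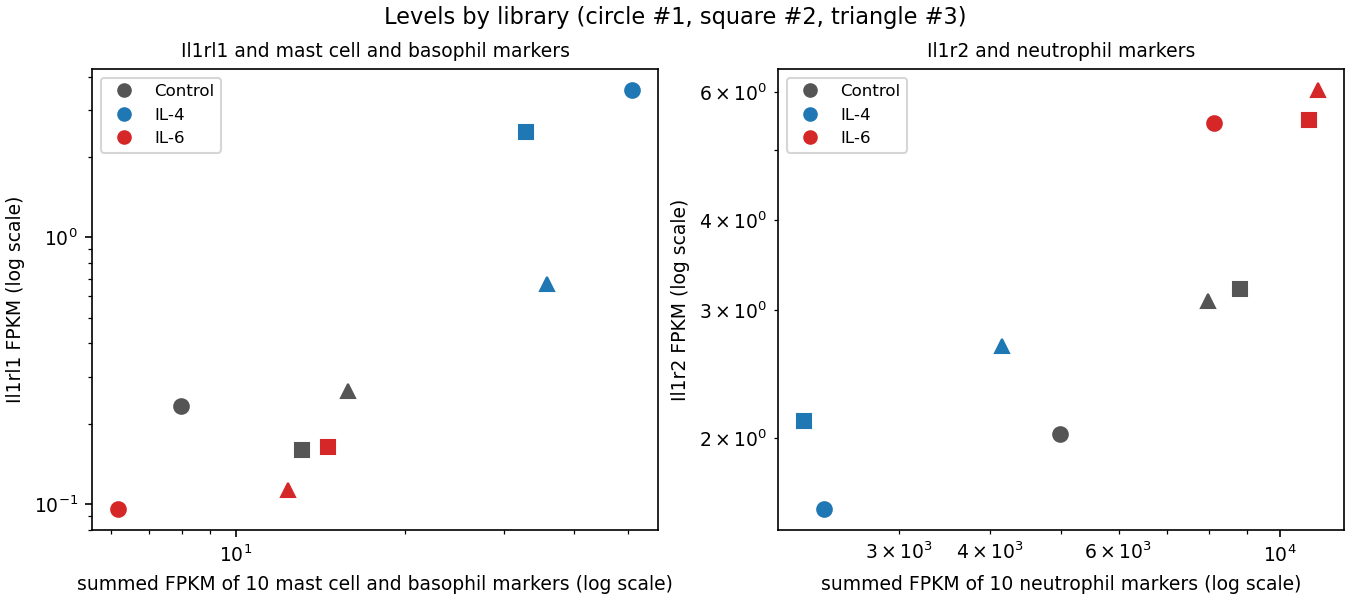
Il1rl1 FPKM against the summed FPKM of 10 mast cell and basophil markers (left) and Il1r2 FPKM against that of 10 neutrophil markers (right), 1 point per library, log axes. The 3 IL-4 libraries stand apart on both axes at left (marker sums of 32.8 or more), and the 3 IL-6 libraries have the highest Il1r2 at right.

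Among the inhibitors, the decoy receptor Il1r2 (ENSMUSG00000026073.13, chromosome 1, 40074079 to 40125231, plus strand) was higher with IL-6. Il1r2 had 2.03, 3.22 and 3.09 FPKM in Control #1 to #3, 1.59, 2.11 and 2.68 in IL-4 #1 to #3, and 5.44, 5.49 and 6.04 in IL-6 #1 to #3. The IL-6 libraries lay above all others, and control and IL-4 overlapped. The IL-6 mean was 2.04 times control, a log2 fold change of 1.03 (SE 0.234, adjusted p = 0.0333), at the edge of the fold that was set. The log2 fold change with IL-4 was −0.37 (adjusted p = 0.288), and IL-6 against IL-4 gave 1.40 (SE 0.234, adjusted p = 0.00261), which passed whichever of the 9 libraries was left out.

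The call of Il1r2 between IL-6 and control was less steady. It was kept without IL-4 #1 or IL-4 #3 and lost without any of the other 7 libraries, Control #1 to #3, IL-4 #2 and IL-6 #1 to #3, with log2 fold changes from 0.82 to 1.14 and a highest adjusted p of 0.128. The library-set term lowered it to 0.48 (adjusted p = 0.397), and a median-ratio rescaling gave 1.02 (adjusted p = 0.0734). IL-1R2 is also known from neutrophils: the summed level of 10 neutrophil markers was 4978 to 8811 FPKM in control, 2218 to 4148 in the IL-4 libraries and 8119 to 11280 in the IL-6 libraries. With IL-6, 1 of the 10 passed higher than control, and with IL-4 9 of the 10 passed lower. All 10 were above 0 in every library, and their part in the Il1r2 result was not tested.

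Il1rn (ENSMUSG00000026981.15, chromosome 2, 24336853 to 24351494, plus strand) encodes secreted and intracellular forms of the receptor antagonist, which the table does not separate. Il1rn had 9.27, 9.47 and 13.4 FPKM in Control #1 to #3, 11.8, 8.57 and 3.89 in IL-4 #1 to #3, and 12.5, 13.2 and 15.6 in IL-6 #1 to #3. The control libraries overlapped with both treatments, and IL-4 #3 was far below the rest. The IL-4 libraries differed from control by −0.52 on the log2 scale (SE 0.367, adjusted p = 0.345) and the IL-6 libraries by 0.37 (SE 0.367, adjusted p = 0.631). The first turned to 0.17 with the library-set term, for IL-4 #1 alone (adjusted p = 0.893). IL-6 against IL-4 gave 0.89 (adjusted p = 0.0926), which passed without IL-4 #1 (1.23, adjusted p = 0.0244), the comparison that the library-set term also makes.

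Il18bp (ENSMUSG00000070427.4, chromosome 7, 102014885 to 102018690, minus strand), the soluble inhibitor of IL-18, had the highest level of the 9 genes in control and with IL-4. Il18bp had 24.2, 29.2 and 25.6 FPKM in Control #1 to #3, 22.3, 13.6 and 11.5 in IL-4 #1 to #3, and 18.8, 23.2 and 24.1 in IL-6 #1 to #3. All 6 treated libraries lay below the control libraries, IL-4 #2 and #3 the most. The log2 fold change with IL-4 was −0.79 (SE 0.237, adjusted p = 0.0429), under the fold that was set, and without IL-4 #1 it was −1.07 (adjusted p = 0.00310), which passed. With IL-6 it was −0.26 (SE 0.237, adjusted p = 0.603), and the library-set term turned it to 0.57 (adjusted p = 0.272). Il18bp shares 80 exon bases (2.6% of its exon length) with Numa1 on the opposite strand, which had a mean of 24.8 FPKM.

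The order of levels differed between conditions. In control it ran Il18bp, Il18, Il1rn, Il1a, Il1b, Il1r2, Il1rap, Il1rl1, Il1r1, from 26.4 ± 2.54 to 0.0342 ± 0.00973 FPKM (SD, n = 3), and the ranges of only the neighbours Il1b and Il1r2 overlapped. With IL-6, Il1b came first at 71.6 ± 7.23 FPKM, ahead of Il18 (24.0 to 26.8) and Il18bp (18.8 to 24.1), whose ranges overlapped. With IL-4, Il18bp came first at 15.8 ± 5.74, and the ranges of all neighbours but Il1r2 and Il1b overlapped.

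Ratios of an inhibitor to what it inhibits were set per library as log2 ratios of (FPKM + 0.1) and tested by exact two-sided permutation, whose smallest p with 3 against 3 is 0.1. The Il1rn to Il1b ratio of FPKM was 2.47, 2.53 and 6.25 in Control #1 to #3, 15.4, 7.18 and 3.52 in IL-4 #1 to #3, and 0.191, 0.190 and 0.196 in IL-6 #1 to #3. The mRNA of the antagonist thus exceeded that of IL-1β in all 6 control and IL-4 libraries and lay below it in all 3 IL-6 libraries. The mean log2 ratio was 1.73 ± 0.744 in control, 2.75 ± 1.03 for IL-4 and −2.37 ± 0.0222 for IL-6 (SD, n = 3). IL-6 differed from control by −4.10 (exact permutation p = 0.1, no overlap), and IL-4 by 1.02 (exact permutation p = 0.2, overlapping).

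The Il18bp to Il18 ratio of FPKM was 1.71, 1.39 and 1.32 in Control #1 to #3, 6.89, 5.11 and 3.81 in IL-4 #1 to #3, and 0.785, 0.965 and 0.897 in IL-6 #1 to #3. No condition overlapped with another, and the IL-6 libraries lay just below 1. The log2 ratio with IL-4 was 1.77 above control and with IL-6 was −0.73 relative to control (exact permutation p = 0.1 for each). The Il1r2 to Il1r1 ratio was 45.0, 122.7 and 98.6 in Control #1 to #3, 1.95, 1.89 and 6.80 in IL-4 #1 to #3, and 23.2, 27.8 and 26.2 in IL-6 #1 to #3. The control values rest on 5 to 10 Il1r1 fragments. The log2 ratio with IL-4 was −2.98 relative to control (exact permutation p = 0.1, no overlap), while IL-6 and control overlapped and differed by −0.23 (exact permutation p = 0.4), which turned to 0.59 with a pseudocount of 1.

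**Figure D4:**
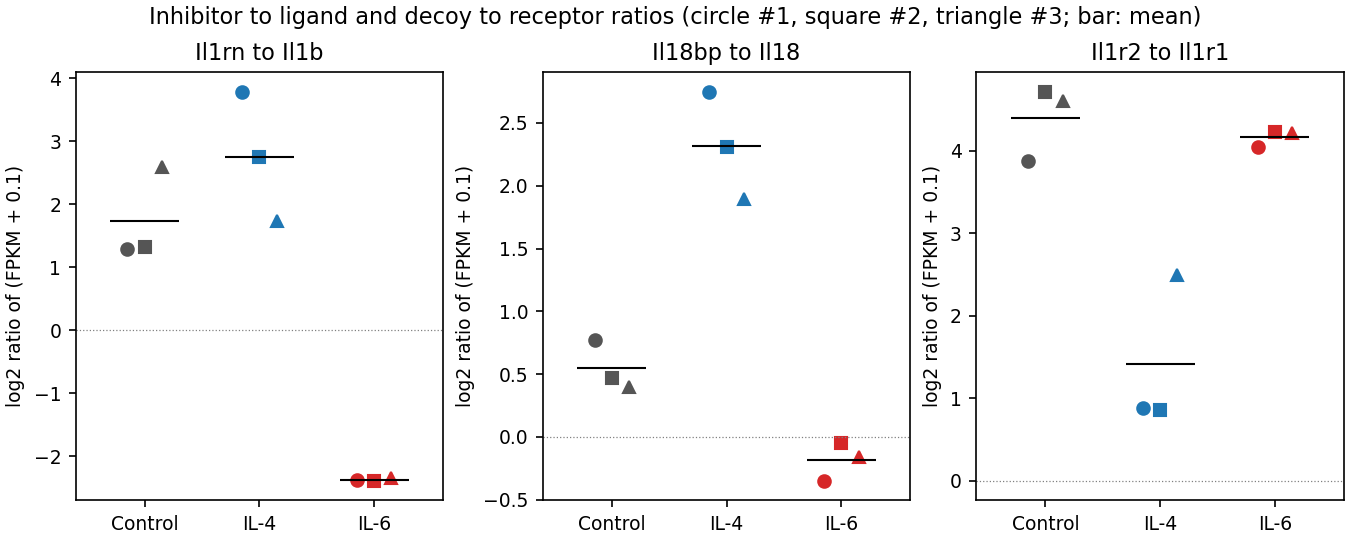
Log2 ratios of (FPKM + 0.1) in each library for Il1rn to Il1b, Il18bp to Il18 and Il1r2 to Il1r1; symbols give the replicate number, bars the mean of 3, and the dotted line marks equal levels. The first 2 ratios are below 0 in the IL-6 libraries alone, and the third is lowest with IL-4.

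Il1r2, Il1r1 and Il1rl1 belong to a run of 6 receptor genes on the plus strand of chromosome 1, within 477627 bases, in the order Il1r2, Il1r1, Il1rl2, Il1rl1, Il18r1 and Il18rap. Il1rl2 encodes the IL-36 receptor, and Il18r1 and Il18rap the chains of the IL-18 receptor. With IL-4 the adjoining genes Il1r1, Il1rl2 and Il1rl1 passed higher and the outer genes did not. Il1rl2 had 0.791, 0.583 and 0.519 FPKM in Control #1 to #3, 6.97, 9.96 and 4.70 in IL-4 #1 to #3, and 0.341, 0.274 and 0.339 in IL-6 #1 to #3. Its log2 fold change with IL-4 was 3.28 (SE 0.286, adjusted p = 0.000132) and with IL-6 −0.79 (adjusted p = 0.152). Il18rap, at 3.03 FPKM in control, differed by −0.75 on the log2 scale with IL-4 (adjusted p = 0.0469, under the fold that was set). With IL-6 it differed by 0.57 (adjusted p = 0.208), and it was higher with IL-6 than with IL-4 (1.31, adjusted p = 0.00332). That last call was lost with a pseudocount of 1, with quantile normalization and with trends on length and GC content removed. Il18r1 stayed low, from 0.0468 to 0.496 FPKM over the 9 libraries. Il1rl1 ends 136 bases before Il18r1 begins.

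**Figure D5:**
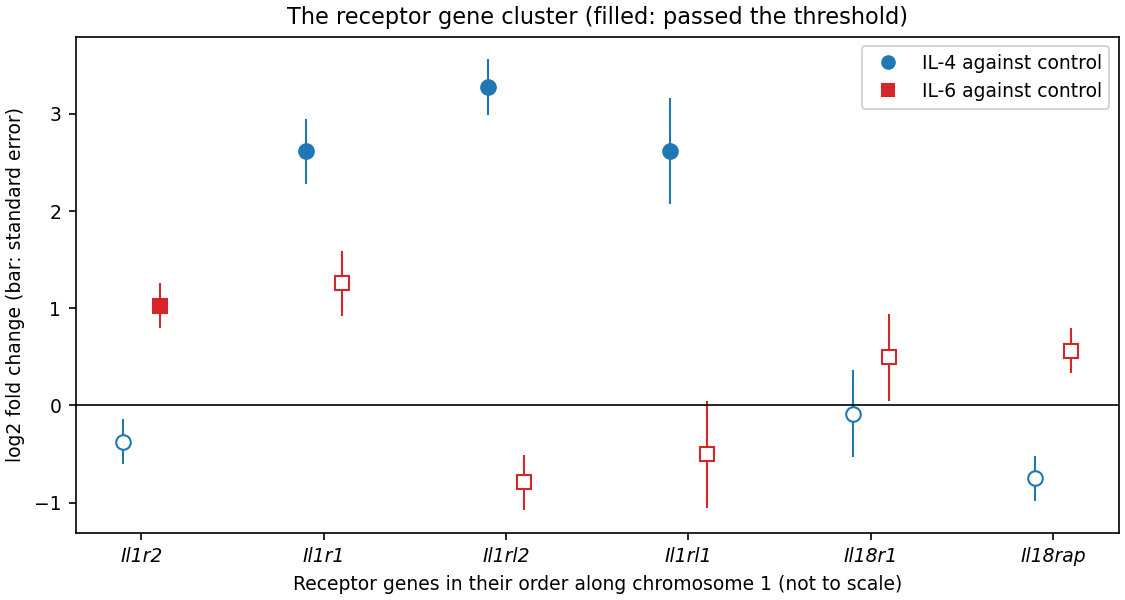
Log2 fold changes (bars are standard errors) of the 6 receptor genes in their order along chromosome 1, not to scale, for IL-4 and IL-6 against control; filled symbols passed the test. The 3 adjoining genes Il1r1, Il1rl2 and Il1rl1 lie at 2.61 or higher with IL-4.

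Of 38 other genes of the pathway, listed as further ligands, further receptors, signalling proteins, and processing proteins, 7 passed with IL-4 (1 higher, 6 lower) and 4 with IL-6 (all higher), and IL-6 against IL-4 gave 13 (11 higher with IL-6, 2 lower). Of the 38, 8 lay below the filter (5 ligands and 3 receptors) and were tested without it. The shares of all genes that passed were 13.9%, 5.38% and 20.4% with the filter, and 6.63%, 2.39% and 9.89% without it. The library-set term gave counts of 3, 0 and 13, of which 3, 0 and 11 were genes that passed without the term. Beside the 0 for IL-6 against control by limma, 10 of the 38 had an unadjusted p under 0.05 in that fit, and limma voom without the term called 4.

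Among the further ligands, Il36g, an IL-36 cytokine known from epithelia, moved the same way as Il1b. Il36g had 8.08, 7.37 and 10.2 FPKM in Control #1 to #3, 3.16, 3.50 and 2.65 in IL-4 #1 to #3, and 17.6, 20.2 and 17.8 in IL-6 #1 to #3. The conditions did not overlap. Its log2 fold change was −1.43 with IL-4 (SE 0.164, adjusted p = 0.000469) and 1.12 with IL-6 (SE 0.164, adjusted p = 0.00457), the latter lost with the library-set term. Il36a was at 0 in the 6 control and IL-4 libraries and had 7, 14 and 2 fragments in IL-6 #1 to #3. It passed between IL-6 and IL-4, but not without IL-4 #1, IL-4 #2 or IL-6 #1. This call was also lost with the library-set term, with a pseudocount of 1 and with only the groups compared. Il33, the ligand of ST2, had at most 5 fragments in any library, Il36b had 2 fragments in 1 library, and Il36rn and Il1f10 had none. Of the further receptors, Sigirr, an inhibitory member, passed in no comparison, from 0.867 to 1.45 FPKM, and Il1rapl1 and Il1rapl2 were at 0.

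Among 17 signalling genes, Irak3, which encodes the inhibitory kinase IRAK-M, fell with IL-4 (12.7 to 3.71 FPKM, log2 fold change −1.81, adjusted p = 0.00155) and rose with IL-6 (to 28.4 FPKM, 1.16, adjusted p = 0.0302). The IL-6 call was lost without any 1 of the 6 control or IL-6 libraries. It was also lost without the filter and with the library-set term. With IL-4, Irak2 (−1.09) and Peli2 (−1.04) also fell, and with IL-6 Peli3 rose (1.43). The Irak2 call was lost without IL-4 #3, the Peli2 call without IL-4 #3 or Control #1, and the Peli3 call without any 1 of the 6 control or IL-6 libraries. For IL-4, neither Irak2 nor Peli2 passed under median-ratio rescaling, quantile normalization, length and GC trend removal, the library-set term or a pseudocount of 1. Peli2 also failed to pass when only the groups compared were fitted. For IL-6, Peli3 did not pass under that pseudocount or that term. Between IL-6 and IL-4, Myd88, Irak2, Irak3, Tab2, Peli2 and Peli3 were higher with IL-6, Myd88 at 52.4 against 22.9 FPKM (1.19, adjusted p = 7.02e-05). That Myd88 call was lost with a median-ratio rescaling, and the Irak2 call with the same rescaling. The calls of Irak2, Tab2 and Peli2 were lost without IL-4 #3 and with trends on length and GC content removed. Those of Irak2 and Peli2 were also lost with quantile normalization, and that of Peli2 with a pseudocount of 1.

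Among 9 genes for processing and release, Nlrp3, the sensor of an inflammasome, had 24.4, 15.4 and 16.1 FPKM in Control #1 to #3, 7.47, 5.96 and 1.79 in IL-4 #1 to #3, and 34.7, 26.0 and 25.9 in IL-6 #1 to #3. It fell with IL-4 (log2 fold change −2.05, adjusted p = 0.0158), a call lost without Control #1, with only the groups compared and with the library-set term. Its log2 fold change with IL-6 was 0.65 (adjusted p = 0.518). Nlrc4, another sensor, had −1.35 with IL-4 (adjusted p = 0.0493), a call lost without any 1 library but IL-4 #1 or IL-4 #2. That call was also lost with a pseudocount of 0.01, without the filter, with only the groups compared and with the library-set term. Between IL-6 and IL-4, Nlrp3 (2.69) and Nlrc4 (1.73) were higher with IL-6. The call of Nlrc4 was lost without IL-6 #2 and with only the groups compared. Casp4, which encodes caspase-11 in mice, rose with IL-6 from 4.98 to 12.6 FPKM (1.32, adjusted p = 0.00106) whichever of the 9 libraries was left out, though not with the library-set term. Casp1 was at 52.9 FPKM in control and 92.8 with IL-4 (0.81, adjusted p = 0.00231, under the fold that was set), and at 45.4 with IL-6, lower than with IL-4 (−1.03, adjusted p = 0.000485). That last call was lost without IL-4 #1, IL-4 #3 or IL-6 #3, with the library-set term and with quantile normalization.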

How the data were processed

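RNA from BM-derived Mϕs was sequenced in 9 libraries (3 control, 3 IL-4, 3 IL-6), which the study counts as 3 mice. The authors deposited FPKM per gene. Their methods and processing notes name STAR 2.4.2a, GRCm38 and Cufflinks 2.2.1, with a GENCODE annotation. Of 53379 gene identifiers, 50604 (94.8%) matched GENCODE M21 with version, and all 92717 values of at most 50 fragments in matched genes were whole fragments within 0.05 over M21 exon lengths (100.0%). Cufflinks estimates abundances rather than whole steps, so how the table was made remains unsettled. Library totals (29988160 to 39909571) were read from these steps, and their number limits precision by counting error only. The kit was stranded, and whether counting used strand is not given in the sources used here.

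All genes were fitted in 1 model over the 9 libraries with limma 3.58.1 in R 4.3.3 (trend, robust) on log2(FPKM + 0.1), with Benjamini-Hochberg adjustment over all genes tested. The code was tested on simulated data. All 9 members were named, with pathway genes that passed in a comparison or belong to the ligand and receptor lists, and the 3 genes with the highest correlation to each of the 8 members that met the filter. The members and lists were chosen with earlier results of these data known. Alternatives planned were the pseudocount, filter, scaling, groups fitted, replicate block, set of libraries, voom and leaving out each library. Removal of length and GC trends and the adjusted p alone were added after seeing the data. The sources used here do not say that same-numbered libraries came from 1 mouse. The deposited column names put an m before the same numbers in each condition, without saying what it stands for. Promoters are from RefSeq, and all 9 genes matched.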

Additional observations from a re-analysis of the deposited data

How the results depend on the processing

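Of 540 values of the 9 genes under alternatives, 501 kept their direction and side of the threshold, 25 no longer passed, 9 newly passed and 5 changed sign. The changes of sign were Il1rn with IL-4 (0.17), Il1rl1 (0.87) and Il18bp (0.57) with IL-6 under the library-set term, and Il1a (−0.014) and Il1rap (−0.12) with IL-6 once trends on length and GC content were removed. None of these 5 had passed. The log2 ratio of Il1r2 to Il1r1 for IL-6 against control turned to 0.59 with a pseudocount of 1.

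For IL-6 against control, 1 in place of 2 members passed with a pseudocount of 1, without a filter, with a minimum of 5 FPKM, with median-ratio rescaling, with quantile normalization and with the library-set term, and 1 to 3 with a library left out. With a library left out, 4 to 5 members passed for IL-4 against control and 4 to 5 for IL-6 against IL-4. Pathway genes that passed with IL-4 were 7, and 4 with only the groups compared, 3 with the library-set term, 4 with trends removed, 12 by the adjusted p alone, and 4 to 9 with a library left out. With IL-6 there were 4, and 0 with the library-set term (limma, where voom without the term gave 4, 10 at an unadjusted p under 0.05) and 2 to 4 with a library left out. Between IL-6 and IL-4 there were 13, and 8 with trends removed. Tab1, Peli3, Nlrc4 and Gsdmd had no matched exon length, so neither trend removal nor voom could test them. Peli3 and Nlrc4 were among the 13. The cause of the other changes was not tested. The replicate number as a block did not pass Il1r1 for IL-6 against IL-4 (−1.36, adjusted p = 0.0529) and changed no other call of the 9 genes or the 38 pathway genes. Whether the numbers pair libraries is not stated. Deviations of same-numbered libraries correlated at 0.521, −0.415 and 0.0777 (IL-4 and control), 0.408, 0.201 and 0.166 (IL-6 and control) and 0.281, −0.0612 and 0.153 (IL-6 and IL-4), and 3, 5 and 3 of 6 libraries correlated best with their own number. Values against control with the library-set term rest on IL-4 #1 alone.

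A median-ratio rescaling moved the median log2 fold change of all genes from −0.20 to −0.01 with IL-4 and from 0.22 to 0.02 for IL-6 against IL-4. Genes that passed higher with IL-4 were then 834 of 1708, against 644 of 1784, and for IL-6 against IL-4 1398 of 2563, against 1738 of 2613. All 9 genes kept their direction under it. Voom and trend removal covered 11356 genes.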

Other observations

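Of all 12824 genes tested, those whose log2 values followed a member most closely over the 9 libraries are given as a description, since libraries of 1 condition share their treatment. They were sought for the 8 members that met the filter, so none is given for Il1r1. Il1b ran with Cxcl2, a neutrophil chemoattractant (Pearson r = 0.997), Arid5a, an RNA-binding protein that stabilizes Il6 mRNA (0.995), and Cd302 (0.995). Il18 ran with Cybc1, a chaperone of the phagocyte NADPH oxidase (0.998), Fcgr1, the high-affinity IgG receptor (0.997), and Dnah2 (0.997). Il1r2 ran with Slpi, a secreted protease inhibitor (0.976), Tgm1 (0.969) and Smim3 (0.968). Il1rl1 ran with Mical2 (0.992), Gm20056 (0.990) and Pdia4 (0.990). For Il1rap they were Mdm2 (0.992), Ahcyl2 (0.990) and Mmgt1 (0.990), and for Il1a Itpkc (0.984), ENSMUSG00000084956.7 (0.984) and A130010J15Rik (0.984). For Il1rn they were Igkj5 (0.979), Ankle1 (0.976) and Zfp143 (0.972), and for Il18bp B4galt4 (0.963), Prss57 (0.956) and Surf4 (0.954).

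Summed levels of other cell type markers also differed between conditions. Those of 8 dendritic cell markers were 10.7 to 12.4 FPKM in control, 36.5 to 87.8 with IL-4 and 7.09 to 11.9 with IL-6, and most of this was Batf3, at 32.8, 36.6 and 84.9 FPKM in IL-4 #1 to #3. The other 7 summed to 5.77 to 7.26 FPKM in control, 2.92 to 3.73 with IL-4 and 4.40 to 8.58 with IL-6. With IL-4, Batf3 and Zbtb46 passed higher and Cd209a and Siglech lower. Those of 8 lymphoid markers were 58.4 to 74.3, 58.7 to 107.7 and 29.9 to 34.5 FPKM in control, IL-4 and IL-6, and with IL-6 Il7r passed lower (log2 fold change −1.19, adjusted p = 0.0272). Without Il7r the lymphoid sums were 12.3 to 20.4, 10.3 to 11.9 and 9.10 to 15.3 FPKM. Those of 10 fibroblast and endothelial markers were 3.38 to 3.90, 2.26 to 4.07 and 5.29 to 8.48 FPKM. Most of this was Pecam1, with means of 2.79, 2.70 and 5.70 FPKM in control, IL-4 and IL-6. With IL-6, 0 of the 10 passed by limma, with 3 at an unadjusted p under 0.05 and 1 lower by limma voom. Summed levels of 18 skeletal muscle genes were 10.3 to 13.7, 4.04 to 14.9 and 13.0 to 20.2 FPKM, and with IL-6 Neb passed higher and Tnni2 lower. Their part in the results of the 9 genes was not tested.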
